A study of Mus musculus with 4 samples.

Results

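The 9 genes described here encode the retinoic acid receptors and the main proteins that carry, make and break down retinoic acid. They were taken by name, with earlier results of these data known, as *Rara*, *Rarb*, *Rarg*, *Crabp1*, *Crabp2*, *Aldh1a1*, *Aldh1a2*, *Cyp26a1* and *Cyp26b1*, out of 27612 genes that at least 1 of the tables listed. They were followed in single-cell transcriptomes of 4 mouse neural stem cell (NSC) lines, which the study derived from epiblast stem cells (EpiSCs) of the 129/Sv strain under different Wnt inputs and compared for their anteroposterior character. All lines were grown in DMEM and Neurobasal medium with N-2 and B-27 supplements, and with EGF and FGF2 at 10 ng/ml each. The XN4 and XN1 lines also received 10 µM XAV939, a tankyrase inhibitor that lowers Wnt signaling. The XAV939 for these lines came from different suppliers, and the batch used for XN1 formed crystals. KN1 received no Wnt modifier. CN4 received 2 µM CHIR99021, an inhibitor of GSK3 that raises Wnt signaling.

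Retinol taken up by a cell is oxidized first to retinal and then to retinoic acid, and the second step is carried out by the ALDH1A enzymes. Retinoic acid binds nuclear receptors of the RAR family, which sit on DNA with RXR partners and regulate nearby genes. CRABP proteins carry it inside the cell and CYP26 enzymes oxidize it for clearance. In the embryo this signal patterns the hindbrain and spinal cord, and some of its own machinery, *Rarb* and *Cyp26a1* among it, is known to be induced by it.

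Each line was 1 library, so differences between lines had no replicate check and no test was made between lines. All intervals are 95% intervals for counting error only, exact Poisson for reads and Clopper-Pearson for shares of cells. Sequence reads were counted without use of molecular identifiers, and such reads are not independent molecules. The authors' normalized tables held 3448 to 3975 cells a line, with a median of 4637 to 7796 reads a cell, and tables of all reads held 8741 to 18157 cells for XN4, XN1 and CN4. KN1 stood apart in yielding a median of 833 genes a cell against 2257 to 2824 in the other lines at similar read numbers, so its shares of cells with a read are low for most genes. Between 14 and 21 cell numbers recurred in each pair of normalized tables. Leaving out every cell whose number another line's table also listed changed none of the counts of members given below. The neural stem cell label was checked against 8 markers, of which 7 in XN1, 7 in KN1 and 8 in CN4 were captured in at least 1% of cells. In XN4 only 3 of the 8 were (*Nes*, *Vim* and *Zeb2*), *Sox2* was captured in 0.56% of its cells, and *Sox3* and *Fabp7* gave no read. All 10 markers of connective tissue-like cells passed 1% in XN4, 5 did in XN1 and in CN4 and 1 did in KN1. Their summed level was 8592 RPM in XN4 and 13.8 to 255 RPM elsewhere, and *Col3a1*, a fibrillar collagen, was captured in 97.8% of its cells against 0.154% to 1.23% in the other lines. In this library the XN4 cells thus go against the markers of their label, and they are called here the XN4 line. By microarray the study found *Sox2* and *Zeb2* of XN4 in the range of embryonic brain and spinal cord, with *Sox3* and *Pax6* low. It also obtained neurons, oligodendrocytes and astrocytes from XN4 after differentiation.

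Levels are given as reads per 1000000 reads (RPM), summed over the cells of the normalized tables, which leave out ribosomal protein and mitochondrial genes. A gene was compared between a pair of lines where it was captured in at least 1% of the cells of 1 of them, and counted as apart where the levels differed at least 2-fold. Between XN4 and XN1, 6 of the 9 members could be compared and all 6 were apart, where 34.9% of 13243 genes were. The median absolute log2 difference was 2.55 for those members and 0.64 for all genes compared. Of the 6, the 3 receptors, *Crabp1* and *Cyp26b1* were higher in XN4 and *Aldh1a1* was higher in XN1. Between XN4 and KN1, 3 of 4 members were apart against 44.5% of genes, and between XN4 and CN4, 5 of 6 against 36.4%. Pairs without XN4 differed in fewer members. One member of 4 was apart between XN1 and KN1 (47.8% of genes), 2 of 4 between XN1 and CN4 (19.2% of genes) and 2 of 4 between KN1 and CN4 (42.5% of genes). The share of members was thus above the background in the pair of XN1 and CN4, where it rests on *Rara* and *Rarg*, and near or below it in the other 2. *Crabp1* and *Cyp26b1* passed the filter through XN4 alone, and *Aldh1a1*, which is 1 of the members apart in each pair of KN1 with XN1 and CN4, did not pass it in KN1. Such members passed only through the line where they were high, and these counts do not describe all 9 members.

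**Figure D1:**
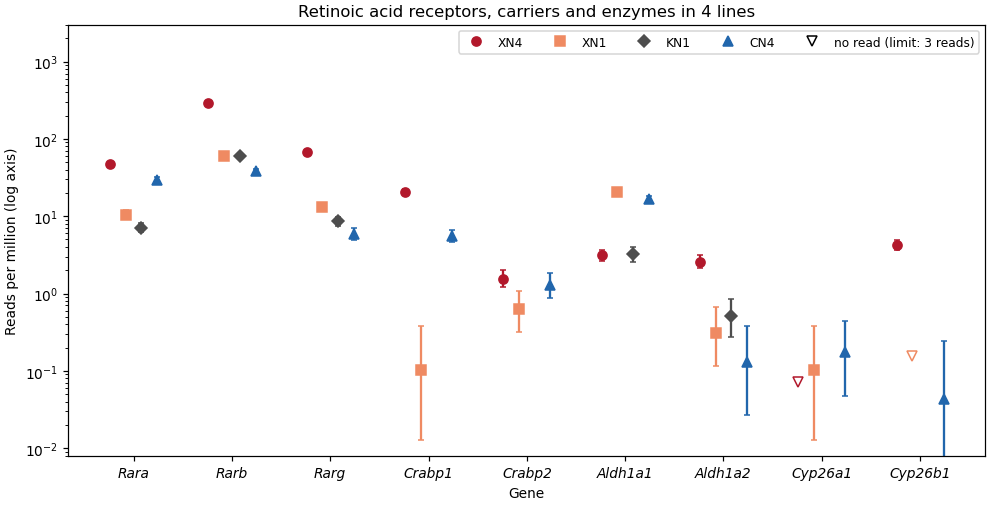
Level of each of the 9 members in the 4 lines, in RPM on a log axis, with exact Poisson 95% intervals. XN4 lies highest for the 3 receptors, at 47.3, 287 and 67.4 RPM, and *Aldh1a1* lies highest in XN1 and CN4; open triangles mark the limit of 3 reads where no read was found, and genes that KN1 did not list have no KN1 point.

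*Rarb* (chromosome 14, 16430839-16819156, minus strand, GRCm38) encodes the receptor that is itself a classical target of retinoic acid. It was captured in 64.0% of XN4 cells, 20.2% of XN1 cells, 14.8% of CN4 cells and 5.53% of KN1 cells. Its level was 287 RPM in XN4 (282 to 293), 60.6 in XN1 (57.2 to 64.2), 60.4 in KN1 (57.5 to 63.3) and 38.6 in CN4 (36.1 to 41.2). XN4 was 4.74-fold above XN1 (4.47 to 5.04) and 7.44-fold above CN4 (6.95 to 7.97). The levels of XN1 and KN1, neighbours in the order, had a ratio of 1.00 (0.931 to 1.08). The KN1 reads came from fewer cells, with 7.56 reads per cell that held any against 1.48 in XN1. The 1% of KN1 cells richest in each gene held 55.8% of its *Rarb*, 95.4% of its *Rara* and 97.0% of its *Rarg* reads. KN1 receptor levels thus rest on few cells, which their intervals do not cover. With every cell reduced to 3200 reads the share of cells with *Rarb* was 44.9% in XN4, 4.62% in KN1, 14.8% in XN1 and 8.92% in CN4. *Rarb* is a long gene of 388 kb whose intronic reads were counted, and it overlaps *Top2b* on the other strand. Whether reads were assigned by strand is not given in the sources used here. *Top2b*, which encodes a DNA topoisomerase, did not follow the order of *Rarb*, with 262 RPM in XN4, 170 in KN1, 325 in XN1 and 371 in CN4.

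Promoter sequences are shown for *Rarb* and *Cyp26a1* because both are known to carry a response element for the receptors close to a transcript start. Reads were counted over whole genes, so they do not tell which start was used. RefSeq promoter windows on GRCm38.p6, each of 250 bases before to 50 bases after a RefSeq start, were found for 8 of the 9 members. They were searched on both strands for a direct repeat of a single form of the receptor half-site, with the letters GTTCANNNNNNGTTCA. Other forms of the half-site were not searched, so a window without a match can still hold an element. It occurred in 25 of 32851 windows (0.0761%), belonging to 24 genes, and *Rarb* and *Cyp26a1* were the members among them. Both were known to carry such an element before the search, so their matches place it and are no finding about the members. The windows are shown 5′ to 3′ on the strand of the gene, with the repeat in capitals, *Rarb* at chr14:16575427-16575726 on the minus strand and *Cyp26a1* at chr19:37697558-37697857 on the plus strand.
Rarb: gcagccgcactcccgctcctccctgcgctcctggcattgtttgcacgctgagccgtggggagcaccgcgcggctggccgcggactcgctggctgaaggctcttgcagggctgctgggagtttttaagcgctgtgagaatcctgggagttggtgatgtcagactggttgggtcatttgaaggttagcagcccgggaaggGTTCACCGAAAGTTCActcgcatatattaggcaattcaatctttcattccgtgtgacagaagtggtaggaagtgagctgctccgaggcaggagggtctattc
Cyp26a1: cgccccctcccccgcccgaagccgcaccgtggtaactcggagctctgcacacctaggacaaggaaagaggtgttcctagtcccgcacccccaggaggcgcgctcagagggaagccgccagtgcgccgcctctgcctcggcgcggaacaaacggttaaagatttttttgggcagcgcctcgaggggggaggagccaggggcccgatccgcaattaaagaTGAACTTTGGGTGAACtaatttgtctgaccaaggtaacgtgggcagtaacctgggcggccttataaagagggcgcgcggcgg
In *Rarb* 36 bases lie between the repeat and the RefSeq start of its window, which is that of a shorter transcript inside the gene span given above. In *Cyp26a1* the distance is 16 bases, and the repeat reads on the opposite strand. A match of letters is a description and no evidence of binding in these cells. A shorter spacing of the same half-sites, GTTCANNNGTTCA, was in 0.225% of the windows and in none of the members' windows.

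*Rarg* (chromosome 15, 102234938-102257517, minus strand) and *Rara* (chromosome 11, 98927818-98974942, plus strand) encode the other receptors, of which *Rara* is known to be broadly expressed. *Rarg* was at 67.4 RPM in XN4 (64.9 to 69.9), 13.2 in XN1 (11.6 to 14.9), 8.56 in KN1 (7.50 to 9.73) and 5.88 in CN4 (4.93 to 6.96). It thus spanned 11.5-fold from XN4 to CN4 (9.64 to 13.7). XN1 was 2.24-fold above CN4 (1.81 to 2.78), and KN1 lay between them, less than 2-fold from either. *Rara* was at 47.3 RPM in XN4 (45.3 to 49.5), 10.5 in XN1 (9.12 to 12.1), 7.15 in KN1 (6.18 to 8.22) and 29.8 in CN4 (27.6 to 32.1). For this receptor CN4 stood next to XN4, which was 1.59-fold higher (1.46 to 1.74), and CN4 was 2.83-fold above XN1 (2.42 to 3.33) and 4.17-fold above KN1 (3.55 to 4.91). The lowest neighbours in the order, XN1 and KN1, were 1.47-fold apart (1.20 to 1.80). *Rara* and *Rarg* therefore ordered XN1 and CN4 in opposite ways. The order XN4, CN4, XN1, KN1 of *Rara* was the same in RPM, in the mean natural-log value, in the share of cells and after thinning. For *Rarb* and *Rarg*, KN1 fell below CN4 when cells with a read or mean natural-log values were used in place of summed reads.

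The make-up of the receptor reads differed accordingly. Gene length and intronic reads can shift the level of one receptor against another, which was not tested, so the mix is compared only between lines. *Rara* took 11.8% of the reads of the 3 receptors in XN4, 12.5% in XN1 and 9.39% in KN1, but 40.1% in CN4. *Rarb* took 71.5%, 71.9% and 79.4% in the first 3 lines and 52.0% in CN4. The share of *Rarg* was 7.91% in CN4 and 11.3% to 16.8% in the other lines. The summed level of the receptors was 402 RPM in XN4 and 74.3 to 84.3 RPM in XN1, KN1 and CN4. In summed reads, CN4 thus differed from XN1 and KN1 more in the mix than in the sum. The KN1 sum rests on few cells, and by share of cells KN1 lay below XN1 and CN4. The share of cells with a read of at least 1 receptor was 78.4% for XN4 (77.1% to 79.7%), 28.0% for XN1, 7.75% for KN1 and 28.8% for CN4. At 3200 reads a cell these shares were 59.7%, 21.2%, 6.57% and 17.9%. All 3 receptors were captured together in 273 of 3927 XN4 cells, in 1 XN1 cell and 3 CN4 cells, and in no KN1 cell.

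Receptor levels also varied with the number of reads a cell gave. The cells of each line were put in 3 equal groups by reads per cell. In XN4, *Rarb* was at 621 RPM (599 to 645) in the cells with fewest reads, at 367 (355 to 378) in the middle group and at 198 (193 to 204) in the cells with most reads. The median numbers of reads in these groups were 3462, 7822 and 18532. *Rarb* in the same groups was at 63.2, 59.9 and 60.0 RPM in XN1, at 67.6, 59.6 and 58.7 in KN1 and at 41.7, 38.2 and 37.7 in CN4, and its intervals overlapped within each of these lines. In XN4, *Rara* went from 61.8 to 42.8 RPM and *Rarg* from 88.2 to 63.0 RPM between the outer groups. *Rara* also fell in CN4, from 36.3 (31.0 to 42.4) to 26.6 RPM (23.6 to 29.8). In KN1 it went from 9.59 (6.91 to 13.0) to 5.54 RPM (4.43 to 6.86), but its reads there rest on few cells, which these intervals do not cover. In XN1 its intervals overlapped, and those of *Rarg* overlapped in XN1, KN1 and CN4. *Top2b* ran the other way in XN4, from 207 to 277 RPM. Even the XN4 cells with most reads had *Rarb* and *Rarg* levels above those of any group of another line. For *Rara* their 42.8 RPM (40.3 to 45.3) lay above but within counting error of the CN4 cells with fewest reads, at 36.3 (31.0 to 42.4).

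**Figure D2:**
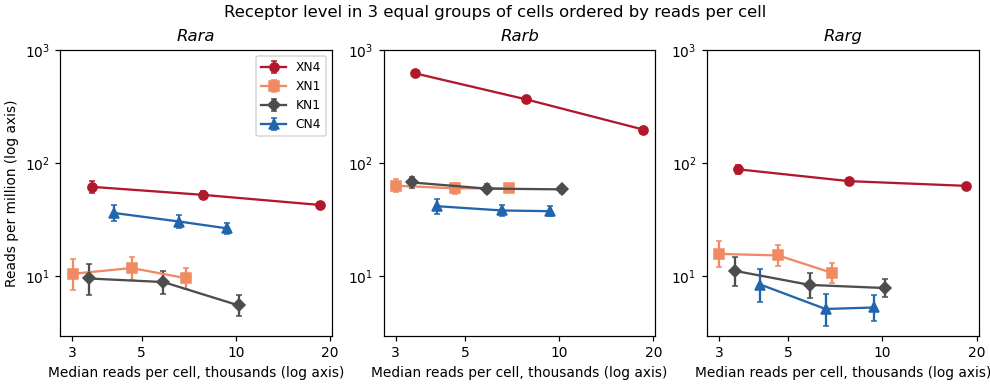
Level of the 3 receptors in RPM against the median reads per cell, both on log axes, for 3 equal groups of cells of each line ordered by reads per cell, with exact Poisson 95% intervals. The XN4 curve for *Rarb* falls from 621 to 198 RPM while those of XN1, KN1 and CN4 stay between 37.7 and 67.6 RPM.

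*Crabp1* (chromosome 9, 54764748-54773110, plus strand), a carrier of retinoic acid in the cytoplasm, was unevenly spread over cells. In the normalized tables it was captured in 216 of 3927 XN4 cells (5.50%, 4.81% to 6.26%) and 23 of 3448 CN4 cells (0.667%, 0.423% to 0.999%). KN1 and XN1 did not list it there. The XN4 level was 20.8 RPM (19.4 to 22.2) and the CN4 level 5.53 RPM (4.61 to 6.58). In the tables of all reads it was at 20.7 RPM in XN4, 10.8 in CN4 and 0.203 in XN1, and the CN4 level thus depended on which cells were drawn, with XN4 at 3.76-fold over CN4 among the normalized cells and 1.93-fold among all cells. The XN1 figure rests on 15 reads in 14452 cells. In XN4 the reads came from 527 of 8741 cells, up to 143 in 1 cell, and the 1% of cells with most *Crabp1* reads held 53.1% of them. In CN4, 122 of 18157 cells held all 1524 reads, 28 of them with at least 10 reads and 1 with 194. *Crabp1* reads thus came from few cells in both lines, with 3.91 reads per cell that held any in XN4 and 12.5 in CN4.

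Most *Crabp1* reads of CN4, though not most of the cells that held them, lay in cells with several connective tissue-like markers. The list of 10 markers was *Col1a1*, *Col1a2*, *Col3a1*, *Dcn*, *Lum*, *Postn*, *Twist1*, *Prrx1*, *Foxc1* and *Tbx18*, and the limit of 5 markers was set after these values were seen, so what follows is a description. Of 18157 CN4 cells, 70 (0.386%) held at least 5 of the markers. *Crabp1* was captured in 38 of these 70 cells (54.3%, 41.9% to 66.3%) and in 84 of the other 18087 (0.464%, 0.371% to 0.575%). The 70 cells held 90.9% of the *Crabp1* reads of the line, at 2407 RPM against 0.985 RPM in the other cells. Their median of 7649.5 reads a cell was close to the 7221.0 of the other cells. With a limit of 3 markers, 298 cells held 92.0% of the reads, and with a limit of 7 markers, 53 cells held 82.1%.

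Other retinoid genes were also found in these 70 CN4 cells. *Stra6*, the membrane receptor through which cells take up retinol from its blood carrier, was captured in 34 of them (48.6%) and in 0.0995% of the other cells, and 88.7% of its reads lay there. *Dhrs3*, which encodes an enzyme that returns retinal to retinol, was in 28.6% against 0.442%, *Crabp2* in 11.4% against 0.293%, *Aldh1a2* in 8.57% against 0.138% and *Cyp26b1* in 8.57% against 0.0829%. The last 3 rest on 8, 6 and 6 cells. *Rarb* was captured in 41.4% of them (29.8% to 53.8%) against 17.0% and *Rarg* in 11.4% (5.07% to 21.3%) against 2.85%. *Rarb* already rose among CN4 cells outside the 70, from 29.7 RPM in cells with no marker to 73.8 RPM in those with 3. *Rara*, in 24.3% (14.8% to 36.0%) against 15.7%, overlapped within counting error. *Aldh1a1*, in 5.71% (1.58% to 14.0%) against 8.08%, did not differ beyond counting error. *Cyp26a1* gave no read in the 70 cells. The neural marker *Sox2* was captured in 20.0% of them against 86.2% of the other CN4 cells, *Hoxa7* in 10.0% against 63.3%, and *Col1a1*, one of the markers used for the choice, in 80.0%. Cells of XN4 with at least 5 of the same markers, 4695 of 8741, had *Crabp1* at 23.5 RPM and *Tgm2*, a transglutaminase known to be induced by retinoic acid, at 99.3 RPM, where the 70 CN4 cells had 2407 and 1.74 RPM. These XN4 cells had a median of 13689.0 reads against 4528.0 in the other XN4 cells, and *Crabp1* was at 11.5 RPM in the latter. *Rarb* was at 229 RPM in the former and 438 in the latter, whereas in CN4 it was at 86.9 RPM in the 70 cells and 38.9 in the others. Depth thus moved with the markers in XN4, and the part of either in these values was not tested. Of the 70 cells, 5 had a number that another library also used, and the 65 others had *Crabp1* at 2539 RPM in 53.8% of cells. In XN1, 4 of 14452 cells held 5 markers and none of them had a *Crabp1* read. Doublets were not called, and their part in these cells was not tested.

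**Figure D3:**
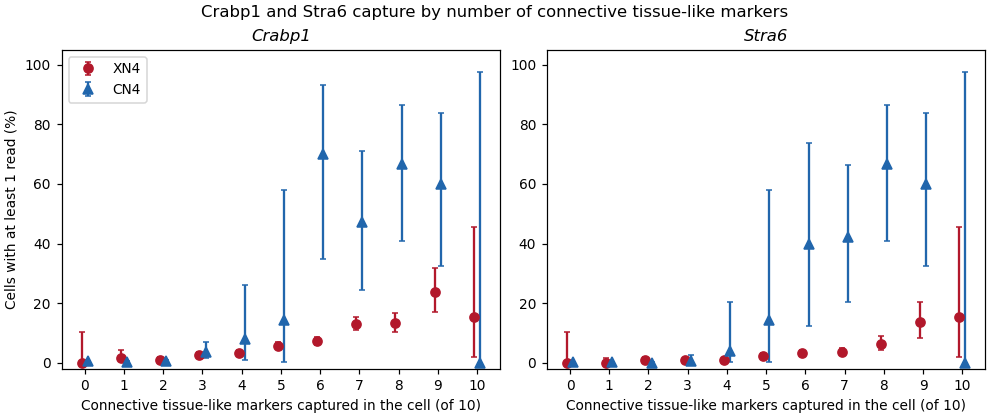
Share of cells with at least 1 read of *Crabp1* (left) and *Stra6* (right) against the number of the 10 connective tissue-like markers captured in the same cell, for XN4 and CN4, with exact 95% intervals. In CN4 the *Crabp1* share goes from 0.459% of cells without a marker to 66.7% of cells with 8 markers and 60.0% with 9, and in XN4 from 0% of 34 cells without a marker (up to 10.3%) to 13.2% with 8 and 23.7% with 9.

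*Crabp2* (chromosome 3, 87948666-87953376, plus strand), which carries retinoic acid to the receptors in the nucleus, was captured in under 1% of the cells of every line. It was at 1.56 RPM in XN4 (1.20 to 1.99), 1.31 in CN4 (0.881 to 1.86) and 0.622 in XN1 (0.321 to 1.09), and KN1 did not list it. In all reads it was at 1.54 RPM in XN4 and 0.670 in CN4 (0.542 to 0.820), so that XN4 was 2.29-fold above CN4 (1.76 to 2.995) there. The highest of 8 genes that should be silent in these cells, such as *Gcg* for glucagon, reached 1.46 RPM in XN4, 0.580 in KN1, 0.311 in XN1 and 0.0871 in CN4. The XN4 level of *Crabp2* was thus within counting error of that background.

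*Aldh1a1* (chromosome 19, 20492715-20643465, plus strand), which encodes a retinal dehydrogenase, was the member that was lower in XN4 than in XN1 and CN4 among those that could be compared. It was at 20.8 RPM in XN1 (18.9 to 23.0) and 16.7 in CN4 (15.1 to 18.5), against 3.12 in XN4 (2.61 to 3.71) and 3.23 in KN1 (2.59 to 3.97). It was captured in 7.68% of XN1 cells, 7.19% of CN4 cells, 1.40% of XN4 cells and 0.654% of KN1 cells. XN1 was 6.67-fold above XN4 (5.46 to 8.20) and CN4 5.36-fold above it (4.38 to 6.58). The neighbours at either end of the order, XN1 and CN4 (1.25-fold, 1.08 to 1.44) and KN1 and XN4 (1.03-fold, 0.781 to 1.37), lay close together. In the share of cells, in mean natural-log values, in means over cells, after thinning and without the cells with most reads, XN4 stood above KN1 instead. The lines with XAV939 thus held both the highest and 1 of the lowest levels. *Aldh1a7*, a near paralog that could share its reads, was at 0.432 to 1.14 RPM in the lines that listed it. *Aldh1a2* (chromosome 9, 71215789-71296243, plus strand), the main retinoic acid-producing enzyme of the early embryo, was at 2.59 RPM in XN4 (2.13 to 3.13). It had 108 reads in 32 cells there, with 33 of the reads in 1 cell, which the interval does not cover. It was at 0.508 RPM in KN1, 0.311 in XN1 and 0.131 in CN4, which are 14, 6 and 3 reads, and the KN1 and XN1 levels were no higher than the highest background gene of the same library. In all reads it was at 1.98 RPM in XN4, 0.217 in XN1 and 0.318 in CN4, a ratio of 9.13 for XN4 over XN1 (5.48 to 16.3). The highest background gene of the normalized XN4 cells was at 1.46 RPM.

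The degrading enzymes were captured in few cells. *Cyp26a1* (chromosome 19, 37697798-37701536, plus strand), known as one of the most sensitive targets of retinoic acid, was listed in no normalized table. All reads held 1 read in 8741 XN4 cells, 8 reads in 14452 XN1 cells and 18 reads in 18157 CN4 cells. These are 0.0101, 0.108 and 0.127 RPM. The level in XN1 equalled that of *Gcg* there. *Rarb*, which has the same repeat at a start inside the gene, was at 278, 59.0 and 39.1 RPM in the same tables. Those reads were counted over the whole gene and not by transcript start, so these levels do not compare promoters. *Cyp26b1* (chromosome 6, 84571414-84593908, minus strand) was captured in 63 of 3927 XN4 cells (1.60%, 1.23% to 2.05%), at 4.20 RPM (3.60 to 4.87). In all reads it was at 3.95 RPM in XN4, 0.108 in XN1 and 0.191 in CN4, so that XN4 was 36.4-fold above XN1 (18.3 to 85.0) and 20.7-fold above CN4 (14.0 to 31.9). KN1 did not list it. In XN1 it was at the level of *Gcg* too. In XN4 *Cyp26b1* lay above the highest background gene of the normalized cells, which was at 1.46 RPM. That background was itself higher in XN4 than in XN1 (0.311 RPM) and CN4 (0.0871 RPM). In CN4 the highest background gene was at 0.0847 RPM, which lay within counting error of *Cyp26a1* (0.0753 to 0.201) and below *Cyp26b1* (0.126 to 0.277), and *Cyp26b1* was captured in 0.116% of all its cells against 1.62% of those of XN4.

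Cells in late division were compared with the other cells of the same line. A cell was called G2-M-like when at least 3 of 12 markers such as *Mki67* were captured, which held for 25.6% of XN4 cells, 28.3% of XN1 cells, 33.7% of KN1 cells and 62.6% of CN4 cells. G2-M-like cells had more reads, with medians of 13675.0 against 6397.0 in XN4 and 7272.0 against 5510.0 in CN4. Shares are therefore given at 3200 reads a cell. The classes were called on all reads, so deeper cells could pass the marker limit more easily, which thinning does not undo. In CN4 the level of *Rara* also fell with depth, as given above. *Rarg* was captured in 1.99% (1.20% to 3.09%) of the G2-M-like and 4.87% (4.00% to 5.86%) of the other XN1 cells. In CN4 it was in 1.36% (0.908% to 1.96%) and 2.98% (2.06% to 4.16%). In XN4 it was in 14.4% and 16.2% and in KN1 in 1.01% and 1.14%, with overlapping intervals. The KN1 classes were less distinct, since *Mki67* was at 202 RPM in its other cells, 5.17-fold below the G2-M-like cells, against 13.3 to 29.7 RPM in the other cells of XN4, XN1 and CN4. *Rarb* was in 7.74% and 11.1% of the CN4 classes, with intervals that did not overlap, and *Rara* in 7.06% and 10.3% and *Aldh1a1* in 3.16% and 5.33%, likewise. In the other lines where these genes were compared, the intervals of these thinned shares overlapped. *Rarb* was in 41.9% and 46.1% of the XN4 classes and 15.2% and 14.7% of those of XN1, and *Rara* in 13.5% and 12.3% of those of XN4. In RPM without thinning, *Rarb* was at 224 (216 to 231) and 325 (319 to 332) in the XN4 classes. *Rarg* was at 57.5 (53.8 to 61.4) and 73.3 (70.1 to 76.7) there. In KN1, from few cells, *Rarb* was at 44.6 (41.0 to 48.4) and 74.0 (69.7 to 78.5). *Rara* was at 5.01 (3.86 to 6.40) and 8.99 (7.53 to 10.7) there. Level intervals overlapped for *Rara* in XN4, *Rarg* in KN1, and *Rara*, *Rarb* and *Aldh1a1* in XN1. In shares, *Crabp1* was the reverse in XN4, at 4.42% (3.22% to 5.91%) of the G2-M-like and 2.03% (1.50% to 2.67%) of the other cells. The XN4 level of *Crabp1* also rose with depth. Of the 3 groups by reads per cell, that with fewest reads had 8.36 RPM (5.91 to 11.5). The group with most reads had 27.5 RPM (25.5 to 29.5), and the part of depth in the *Crabp1* contrast was not tested. *Aldh1a1* was at 0.834 RPM (0.444 to 1.43) in the G2-M-like and 4.49 RPM (3.71 to 5.38) in the other XN4 cells, but at 3200 reads a cell it was in 0.411% (0.112% to 1.05%) and 0.787% (0.474% to 1.23%), with overlapping intervals. The cells are those of 1 library a line, and no test was made.

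**Figure D4:**
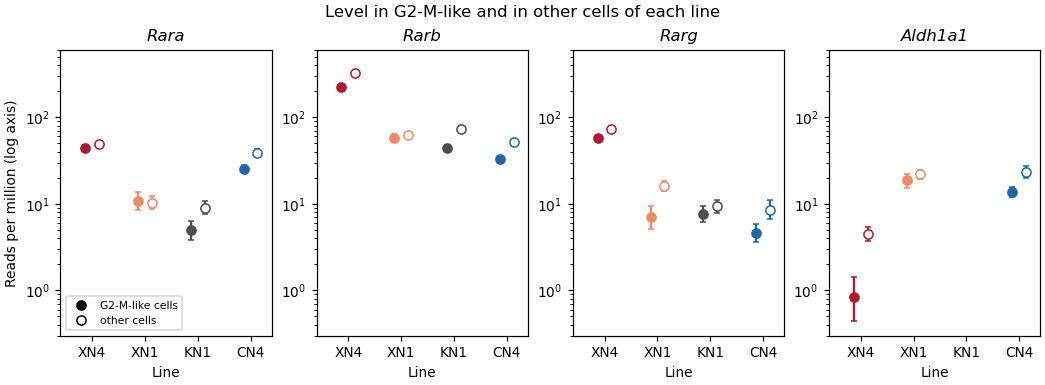
Level of *Rara*, *Rarb*, *Rarg* and *Aldh1a1* in RPM (log axis) in G2-M-like cells (filled) and other cells (open) of each line, with exact Poisson 95% intervals; *Aldh1a1* of KN1 is left out because under 1% of cells held it. *Rarg* in XN1 is at 7.06 RPM in the G2-M-like and 16.1 RPM in the other cells.

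Members captured in at least 5% of the cells of a line were found together about as often as their separate shares and the depth of the cells gave. Rarer members, such as *Crabp1* in CN4, were not compared in this way, and several of them gathered in the 70 CN4 cells described above. Cells were put in 20 strata by total reads, and the cells with reads of both genes were set against the number that independent capture within strata would give. In XN4, *Rara* and *Rarb* were together in 1469 of 8741 cells, a ratio of 0.997 (0.946 to 1.05), and *Rarb* and *Rarg* in 1927 cells, a ratio of 1.01 (0.964 to 1.05). *Rarg* and *Crabp1* gave 1.14 (1.004 to 1.28), an interval just above 1. In XN1, *Rarb* and *Aldh1a1* gave 1.02 (0.905 to 1.15), and in CN4, *Rara* and *Rarb* gave 0.924 (0.846 to 1.01). The 12 pairs of members that were each captured in at least 5% of cells had ratios of 0.843 to 1.14.

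Of 23 other genes of the pathway, 16 could be compared in at least 1 pair of lines and 15 of them were apart in at least 1 pair, as were 72.1% of all genes compared in a pair. The exception was *Rxrb*. Between XN4 and XN1, 10 of 16 were higher in XN4 and 1 in XN1, where 20.1% and 14.8% of all genes were. Between XN4 and CN4, 9 of 16 were higher in XN4 and 1 in CN4, against 19.9% and 16.5%. Between XN4 and KN1, 7 of 15 were higher in XN4 and 3 in KN1, against 21.9% and 22.6%. Between XN1 and CN4, 1 of 14 was apart, against 19.2% of all genes. For XN1 and KN1 7 of 13 were apart against 47.8% of all genes, and for KN1 and CN4 6 of 13 against 42.5%, which are close to the background. *Stra6* and *Dhrs3* passed the filter through XN4 alone, *Tgm2* did so against CN4, and *Rbp4* and *Rdh10* did not pass it in KN1, so that these genes entered such pairs only through the line where they were high.

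Of the genes for retinol handling, *Dhrs3* lay furthest apart between XN4 and the other lines. It was at 296 RPM in XN4, where 70.7% of cells held it, and at 2.38 in XN1, 0.798 in KN1 and 1.18 in CN4. XN4 was thus 124-fold above XN1. *Dhrs3* is known to rise with retinoic acid, and whether that signal had a part in this difference was not tested. *Stra6* was at 7.04 RPM in XN4 and 0.392 to 0.570 in the other lines. The CN4 level of *Stra6* depended on the cells drawn, since in all reads it was 1.62 RPM against 5.95 in XN4, a ratio of 3.67 for XN4 over CN4 (3.14 to 4.29). *Rbp4*, the carrier of retinol in blood, was at 13.1 RPM in XN4 and 2.79 to 5.13 elsewhere. *Rdh10*, the enzyme that oxidizes retinol to retinal, was at 42.3 RPM in XN4, 6.53 in KN1, 14.0 in XN1 and 10.9 in CN4. *Rdh11* broke this pattern, with 65.1 RPM in XN4, 17.8 in KN1, 74.9 in XN1 and 102 in CN4. *Aldh1a3*, which makes retinoic acid, was highest in KN1, at 43.9 RPM, against 12.8 in XN4, 5.18 in XN1 and 8.06 in CN4. In summed reads the ALDH1A genes were thus each highest in a different line, *Aldh1a1* in XN1, *Aldh1a2* in XN4 and *Aldh1a3* in KN1. By share of cells in the tables of all reads, *Aldh1a1* was in more CN4 cells (8.07%) than XN1 cells (7.58%).

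Among the partners and cofactors of the receptors, *Rxra*, a dimer partner, was at 31.8 RPM in XN4, 16.8 in KN1, 10.3 in XN1 and 15.4 in CN4. The corepressor gene *Ncor1* was highest in KN1, at 891 RPM against 332 to 417. The coactivator genes *Ncoa1* and *Ncoa2* were highest in KN1, at 194 and 140 RPM, and *Ncoa3* in XN4, at 66.6 RPM. *Nrip1*, a corepressor known to be induced by retinoic acid, was at 111 RPM in XN4, 33.7 in KN1, 60.3 in XN1 and 51.4 in CN4. *Fabp5*, which can carry retinoic acid to another receptor, was lowest in XN4, with 861 RPM in XN1, 448 in CN4, 156 in KN1 and 62.8 in XN4. The gene of that receptor, *Ppard*, was at 65.5 RPM in XN4 and 20.5 to 24.4 elsewhere.

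Of genes known to be induced by retinoic acid, *Tgm2* was at 103 RPM in XN4, 14.2 in XN1 and 0.740 in CN4, and KN1 did not list it. *Hoxb1*, *Cdx1* and *Stra8* were captured in under 1% of the cells of every line and could not be compared. *Hoxa5*, a marker of region and no member of the pathway list, was near 0 in XN4, at 0.865 RPM against 86.7 in XN1, 181 in KN1 and 188 in CN4.

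**Figure D5:**
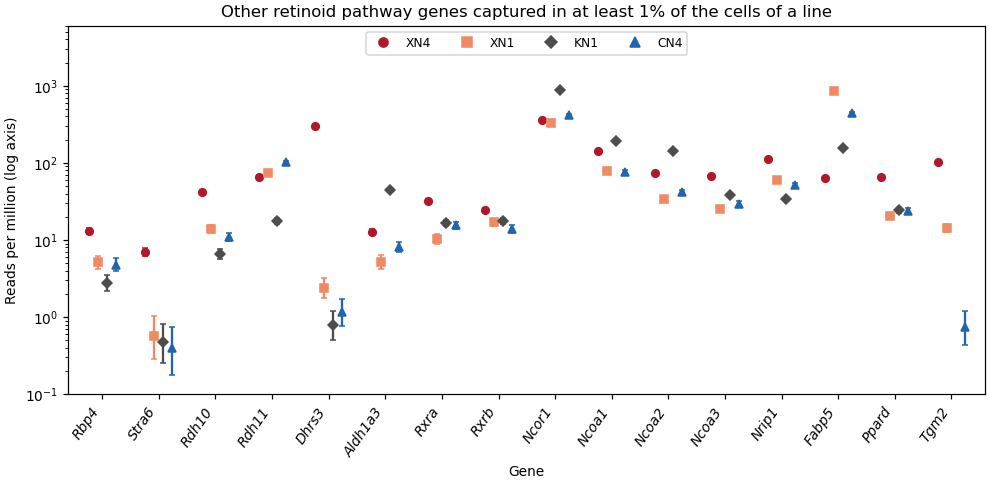
Level of other retinoid pathway genes captured in at least 1% of the cells of a line, in RPM on a log axis with exact Poisson 95% intervals; genes with no read in a line or not listed there have no point. *Dhrs3* shows the widest gap, 296 RPM in XN4 against 0.798 to 2.38 in the other lines.

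The genes whose levels over the 4 lines were most like those of a member were found by the distance between centred log2(RPM + 1) values, among 10680 genes captured in at least 5% of the cells of 1 line. For *Rarg* the nearest was *S1pr2* (distance 0.07), at 111, 21.9, 15.4 and 10.1 RPM in XN4, XN1, KN1 and CN4, followed by *Crebrf* (0.16). For *Rarb* they were *Cep170b* (0.20) and *Fbn1* (0.25), for *Rara* *Iglon5* (0.22) and *Rassf2* (0.24), and for *Aldh1a1* *Rab39b* (0.17) and *Lingo1* (0.25). With 4 points a gene, many genes lie close by. Across the cells of a line, correlations of natural-log values reached 0.2 only for *Rarb* in XN4, with *Sned1* (r = 0.23) and *Gpc6* (r = 0.20) over 3927 cells. In the other cases, *Rara* and *Rarg* in XN4, *Rarb* in XN1 and *Rara* and *Rarb* in CN4, the highest r was 0.07 to 0.14. Such values are descriptions of sparse counts from cells that share a library.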

How the data were processed

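Single-cell transcripts of 4 NSC lines were measured with BD Rhapsody whole transcriptome libraries, 1 library a line. Cells had been dissociated, strained and stored in CellCover before capture. The authors deposited counts of reads per gene and cell, for CN4, XN1 and XN4, from the BD Rhapsody WTA Analysis Pipeline 1.12.1, per the file headers with GRCm38 and GENCODE annotation, refined calling of putative cells, and intronic reads included. Natural log values of a random draw of cells from every line were deposited as well, ln(1 + 10000 × reads / total), made in Seurat 4.3.0 with ribosomal protein and mitochondrial genes left out and rare genes not listed. For KN1 a table of counts was not used here.

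Reads were recovered from the natural log values, and 100.0% were whole within 0.01 of a read. For XN4, XN1 and CN4, genes missing from a normalized table were taken from the counts of the same cells. These genes held 0.0804% to 0.240% of the reads of these cells. Genes that KN1 did not list were left out of its pairs. Levels were RPM over all cells of a table, thinned shares used 3200 reads a cell and left out 288 to 773 shallower cells a line, and a gene with under 3 reads was set to 3 in ratios. A pair of lines was compared over genes captured in at least 1% of cells of either line. With 1 library a line no test was made between lines. No doublet caller was run. The scripts used Python 3.11.15, numpy 2.4.6, scipy 1.17.1 and pandas 2.3.3, and were tested on simulated reads. The members, pathway lists and markers were chosen with earlier results of these data known. All 9 members are described, pathway genes with values are those at least 2-fold apart in a pair of lines and *Aldh1a7*, given as a near paralog of a member, and like genes are the 2 nearest by the stated measures. Some genes of the pathway list are not reported here and are in none of its counts. Alternatives were other cell sets, denominators, filters, folds, capture limits and strata.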

Additional observations from a re-analysis of the deposited data

How the results depend on the processing

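The number of members at least 2-fold apart stayed within 1.5 times its value in 37 of 42 planned recomputations and in 18 of 18 added after seeing the data. Without a filter on low genes and with unlisted genes set to 3 reads, it was 7 instead of 3 for XN4 and KN1, 2 instead of 1 for XN1 and KN1, 5 instead of 2 for XN1 and CN4, and 5 instead of 2 for KN1 and CN4, since members that the filter or a missing KN1 entry had left out then entered. At 4-fold it was 0 instead of 2 for XN1 and CN4, which follows from the stricter limit. For XN4 and CN4, *Crabp1* was no longer apart when every cell with deposited counts was used, at 4-fold, or with only XN4 cells holding under 5 connective tissue-like markers. Its log2 difference rose from 1.91 to 3.76 without the CN4 cells holding 5 or more of these markers. The share of XN4 cells with a receptor, G2-M-like over other, turned from above to below 1 at 3200 reads a cell. It went to 0.909 for *Rarb* and 0.886 for *Rarg*. Thinning evens the reads per cell, but the classes were still those called on all reads. Of co-capture ratios, 59 of 72 stayed within their intervals. Levels moved outside theirs in 46 of 125 planned recomputations and in 8 of 54 added ones. Shares of cells did so in 50 of 103. Capture limits of 2 reads and thinning lower such shares by design. Shares of G2-M-like over other cells moved in 11 of 68 and reversed in 2. Shares of CN4 reads in cells with connective tissue-like markers moved in 11 of 26. No paired analysis was possible because each line was 1 library. With 1 library a line, depth limits mainly *Crabp2*, *Aldh1a2*, *Cyp26a1* and *Cyp26b1*, and the low number of genes per KN1 cell limits all its shares. The KN1 receptor levels rest on reads from few cells.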
